A study of Drosophila melanogaster with 40 samples.

Results

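Lactate dehydrogenase and the oxygen-sensing pathway upstream of it were followed in Drosophila S2 cells through 5 genes, Ldh (also called ImpL3), sima, tgo, Hph (also called fatiga) and Vhl. These 5 were listed by name, and each was found as a locus of its own by matching the RefSeq accessions of the tables to gene symbols, so that 5 of 15863 loci at 25°C and 5 of 15864 at 28°C are described. S2 cells are an established line from fly embryos that resembles macrophage-like blood cells. RNA was sequenced from 2 time courses of 20 libraries each, 1 library every 3 h from CT24 to CT81 (circadian time, in h), under constant conditions at 25°C or at 28°C. At 25°C the cells had passed at least a week of daily cycles between 23 and 28°C, received fresh medium at the start of constant conditions, and their polyA RNA was sequenced. At 28°C the cells had passed 2 days of such cycles followed by a day at constant 28°C, and their RNA was depleted of rRNA. No time point has a second library, although the methods describe lysis in triplicate. The methods list the medium supplement MycoZap for the 25°C course only. Temperature, entrainment, medium, RNA fraction and depth differ together between the courses and cannot be told apart, so no test was made across them.

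Lactate dehydrogenase turns pyruvate, the end product of glycolysis, into lactate and regenerates the NAD that glycolysis needs, and it is used most where oxygen is scarce or growth is fast. Its gene is a classical target of the hypoxia-inducible factor, a dimer of the oxygen-sensitive subunit sima (the fly counterpart of HIF-alpha) and the constant partner tgo (the counterpart of HIF-beta, or ARNT). With oxygen present, the prolyl hydroxylase Hph modifies sima, and Vhl, the substrate receptor of a ubiquitin ligase, then marks it for destruction. In flies Hph is itself induced by sima, as part of a feedback loop.

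The values are FPKM, read numbers scaled to the length of the transcript and the size of the library. The lowest member value at 25°C still stood for about 203 reads by an estimate from low loci, whereas at 28°C the median over libraries was about 68.4 reads for Ldh, 43.6 for sima, 40.4 for Hph and 14.05 for tgo. Depth relative to the median library ran from 0.577 to 1.59 at 25°C and from 0.520 to 1.4 at 28°C. The 4 shallowest libraries at 28°C were those of CT24, CT27, CT48 and CT60. The 10 most abundant loci held 11.2 to 14.0% of the FPKM at 25°C and 26.5 to 52.9% at 28°C. Of 9 hemocyte markers, 5 had a mean of at least 0.9 FPKM at 25°C, led by Col4a1 (347 FPKM) and vkg (256 FPKM), subunits of collagen IV, while the receptors NimC1, Sr-CI and eater and the secreted Hml lay below it. At 28°C 8 of the 9 reached this level, among them Hml (10.04 FPKM), Sr-CI (2.99) and eater (2.50). There Sr-CI was listed at 0 in 11 of the 20 libraries, eater in 5 and Hml in 0. The estimated value of a read, in FPKM times kb of transcript, had a median of 2.16 at 28°C and 0.0464 at 25°C. A mean of 0.9 FPKM thus stood for fewer reads at 28°C. The means of Hml, Sr-CI and eater at 25°C were 0.021, 0.054 and 0.667 FPKM, and the source of the difference was not tested. Over the 25°C course the hemocyte marker Pxn, a peroxidase of the matrix, fell from 42.02 FPKM in the first 5 libraries to 21.3 in the last 5 (adjusted P = 0.000454 for a trend with limma), srp fell and crq, Col4a1 and vkg rose, and their part in the members' course was not tested. Of 8 markers of other cell types, 3 reached 0.9 FPKM (elav, Mef2 and piwi, with means of 6.65, 7.69 and 4.08 FPKM), of which elav rose and Mef2 and piwi fell. At 28°C elav, Mef2 and PPO1 (4.02 FPKM, against 0.128 at 25°C) did, with PPO1 listed at 0 in 5 libraries and elav and Mef2 in 2 each.

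Ldh was the member that moved most at 25°C. The locus (XLOC_008302; chromosome 3L, 6252205 to 6255794 in dm3) stood at 5.43 FPKM at CT24, then at 28.6, 27.5, 74.9 and 66.9 FPKM up to CT36. From CT39 to CT51 the libraries held 131, 166, 263, 329 and 415 FPKM. Each of these 5 libraries was above every one of the first 5, and each was above its predecessor. At CT54 the value fell back to 177 FPKM and then lay on a plateau, with 176, 173 and 170 FPKM up to CT63 and 246 FPKM at CT66. At CT69 it was 840 FPKM, followed by 970, 986, 1289 and 1279 FPKM. The last 5 libraries were thus all above all 15 before them. How many of all loci had blocks separated in this way was not computed. In these bulk samples, fewer cells that express a transcript and less of it per cell cannot be told apart.

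Averaged over blocks of 5 consecutive libraries, Ldh rose from 40.7 ± 29.3 FPKM (SD over 5 time points) in the first block (CT24 to CT36) to 261 ± 116 in the second, was 188 ± 32.5 in the third, and reached 1073 ± 201 in the fourth (CT69 to CT81). The mean of the last block was 26.4 times that of the first. The highest value of the course was 237 times the lowest, the widest such ratio among the 6933 loci that reached 0.9 FPKM in all 20 libraries, for which the median ratio was 1.44. The ratio of Ldh rests on the library of CT24. Without it the lowest value was 27.5 FPKM, the ratio 46.96 and its rank 3. A straight line through log2(FPKM + 1) against time, fitted with limma, rose by 2.43 per 24 h (standard error 0.27, adjusted P = 1.11e-07), the second steepest rise among 7531 loci with a mean of at least 0.9 FPKM. With 1 library left out at a time, the slope stayed between 2.14 and 2.49. All 12 pairs of libraries 24 h apart were higher at the later time, by 1.30- to 60.5-fold with a median of 3.07-fold. Without CT24 the largest of these was 14.5-fold and the median 2.95-fold. Across the 6933 loci, the median fold between libraries 24 h apart had a median of 0.991. The share of loci with all 12 pairs higher was not computed.

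**Figure D1:**
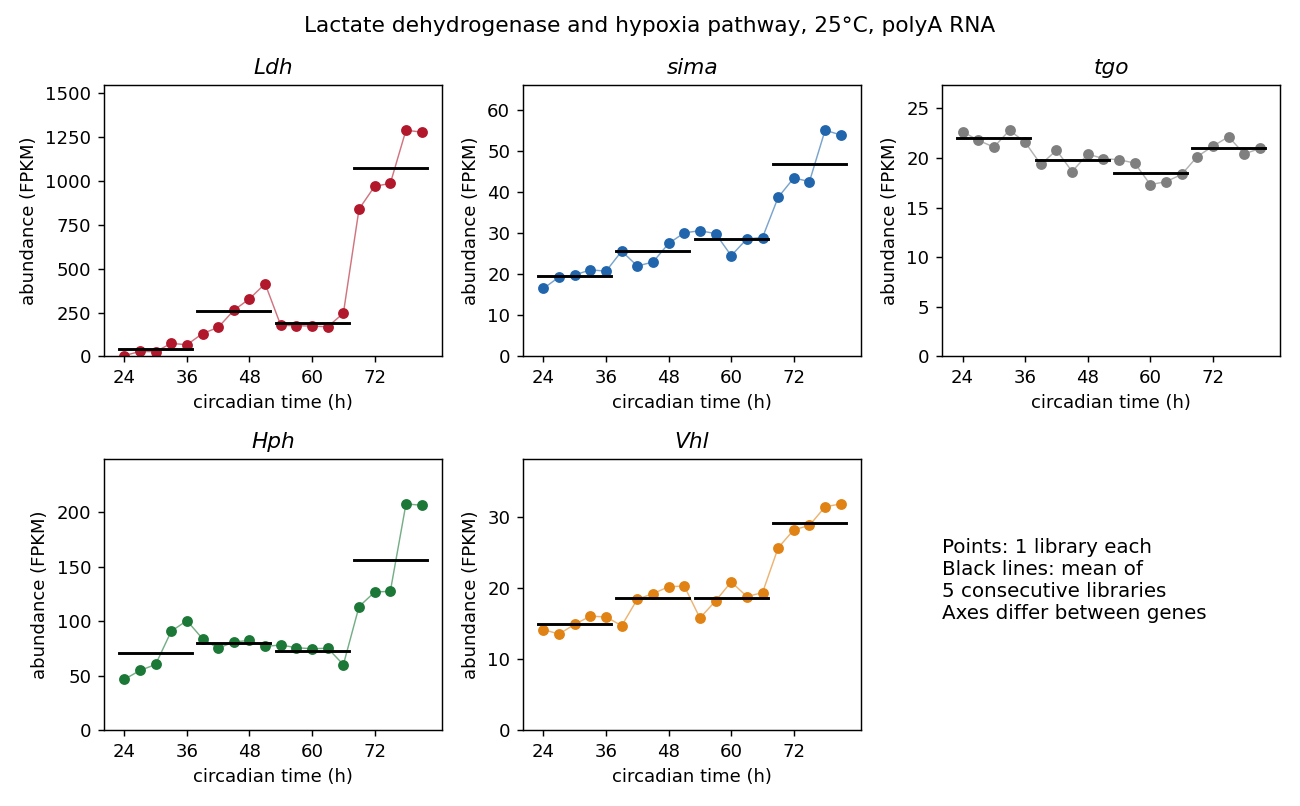
FPKM of the 5 genes at 25°C against circadian time (h), with 1 point per library and black lines for the mean of 5 consecutive libraries; the axes start at 0 and differ between genes. Ldh climbs to 415 FPKM at CT51, drops to 177 at CT54 and steps up to 840 at CT69, sima, Hph and Vhl are highest in the last 5 libraries, and tgo stays between 17.3 and 22.8 FPKM.

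The regulators upstream of Ldh covered narrower ranges. The transcript of sima (XLOC_011153; chromosome 3R, 25884033 to 25947520), the oxygen-sensitive subunit, had its lowest value of 16.6 FPKM at CT24, a median of 28.1 and its highest of 55.1 at CT78. Its block means were 19.6, 25.7, 28.6 and 46.8 FPKM, and the last 5 libraries (38.8, 43.5, 42.6, 55.1 and 53.98 FPKM) were all above the 15 earlier ones, whose highest was 30.7. The first and second blocks did not overlap either, with 21.1 FPKM as the highest of the first and 22.1 as the lowest of the second. The share of all loci with blocks separated like this was not computed. By limma, 18.8% of all tested loci rose from the first to the second block and 21.7% from the third to the fourth. The slope of sima was 0.60 per 24 h on the log2 scale (standard error 0.05, adjusted P = 3.59e-09).

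The dimer partner tgo (XLOC_011590; chromosome 3R, 4841168 to 4845744) stayed within a 1.32-fold range, from 17.3 FPKM at CT60 over a median of 20.4 to 22.8 FPKM at CT33. Its block means of 22.0, 19.8, 18.5 and 21.0 FPKM describe a shallow dip in the middle of the course, and the fourth block overlapped the first. The slope of −0.05 per 24 h (standard error 0.03, adjusted P = 0.191) did not pass the test. At the first library sima was below tgo (16.6 against 22.7 FPKM), and at the last it was above it (53.98 against 21.0 FPKM).

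Hph (XLOC_009483; chromosome 3R, 1082759 to 1095229), the prolyl hydroxylase, was at 46.7, 54.9, 60.4, 90.9 and 101 FPKM in the first block. It then lay between 74.85 and 84.0 FPKM from CT39 to CT63 and at 60.2 FPKM at CT66. The last 5 libraries held 113, 127, 128, 208 and 207 FPKM, all above every earlier value. Hph rose by 0.55 per 24 h (standard error 0.12, adjusted P = 0.000269), and its last block was 2.21 times its first.

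Vhl (XLOC_003620; chromosome 2R, 7167230 to 7171476), the receptor that binds hydroxylated sima, had its lowest value of 13.5 FPKM at CT27, a median of 19.0 and its highest of 31.8 FPKM at CT81. The last block (25.7, 28.2, 28.8, 31.4 and 31.8 FPKM) again lay above all earlier libraries, the highest of which was 20.9 FPKM. The share of all loci with such separated blocks was not computed, for Vhl or for the members above. Vhl rose by 0.45 per 24 h (standard error 0.05, adjusted P = 5.10e-08). In all, 4 of the 5 members rose over the course and 0 fell, where 32.4% of all tested loci rose and 35.6% fell, so that 68% had a trend in either direction. The members' median slope was 0.55 per 24 h and that of all loci was −0.01, and sima, Hph and Vhl ranked 211th, 262nd and 384th of the 7531 slopes.

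The comparison of neighbouring blocks placed these changes in time. Between the first and the second block Ldh rose by 2.96 on the log2 scale (adjusted P = 0.000353), sima by 0.37 (adjusted P = 0.00714) and Vhl by 0.29 (adjusted P = 0.0107). Here tgo fell by 0.14 (adjusted P = 0.00814) and Hph differed by 0.24 (adjusted P = 0.35), so that 3 members rose and 1 fell while 18.8% of all loci rose and 23.9% fell. From the second to the third block 0 members passed the test, against 26.7% of all loci. The difference was −0.36 for Ldh (adjusted P = 0.630), whose second block itself spanned 131 to 415 FPKM, and −0.09 for tgo (adjusted P = 0.0883). The latter passed without the library of CT45 (−0.11, adjusted P = 0.0475) or that of CT54 (−0.12, adjusted P = 0.0327).

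From the third to the fourth block all 5 members rose, against 21.7% of all loci. The difference was 2.50 for Ldh (standard error 0.49, adjusted P = 0.000485), 1.05 for Hph (0.20, 0.000343), 0.68 for sima (0.10, 4.62e-05), 0.62 for Vhl (0.08, 2.37e-05) and 0.17 for tgo (0.04, 0.00190). Thus tgo rose here too, with the smallest difference of the 5. Between the first and the last block Ldh, sima, Hph and Vhl were higher by 5.10, 1.21, 1.15 and 0.92, each past the test as in 33.6% of all loci, and tgo differed by −0.07 (adjusted P = 0.15).

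Much of the course of Ldh lay in single steps of 3 h. It rose 5.27-fold from CT24 to CT27, when 1.28% of the 6933 loci rose by more than 1.5-fold, and 2.73-fold from CT30 to CT33 (0.692% of loci). Rises of 1.95-fold from CT36 to CT39 (1.88% of loci) and of 1.59-fold from CT42 to CT45 (0.938%) followed. Between CT51 and CT54 it fell to 0.427 of its value, which ranked 15th among the falls of that interval, when 1.33% of loci fell by more than 1.5-fold. From CT66 to CT69 it rose 3.41-fold, which ranked 3rd of all loci, while 1.41% of loci rose by more than 1.5-fold. Hph rose by more than 1.5-fold in 3 steps, from CT30 to CT33 (1.51-fold), from CT66 to CT69 (1.89-fold) and from CT75 to CT78 (1.63-fold, 0.75% of loci). The first 2 of these were also steps of Ldh. The largest steps of sima and Vhl, rises of 1.34- and 1.33-fold, also lay between CT66 and CT69. The largest rise of tgo, 1.10-fold, was in the same interval but ranked 1253rd of the 6933 loci. Its largest step was a fall to 0.889 of its value from CT57 to CT60. A step compares 1 library with 1 other and has no error of its own.

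**Figure D2:**
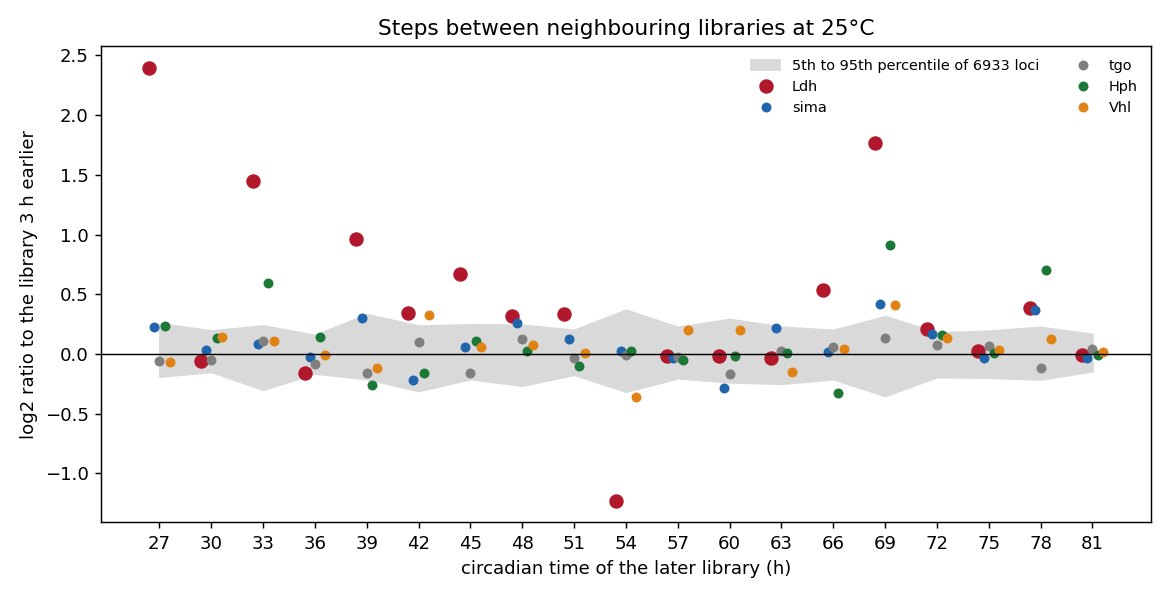
Log2 ratio of each library to the one 3 h before it at 25°C for the 5 genes, against circadian time (h) of the later library, with the 5th to 95th percentile of 6933 loci in grey. Ldh lies farthest above the grey band at CT27 (5.27-fold), CT33 and CT69 (3.41-fold) and far below it at CT54 (0.427-fold), and at CT69 sima, Hph and Vhl lie above the band as well.

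Across the 20 libraries at 25°C the profile of sima had a Spearman's rho of 0.92 with Ldh, that of Vhl 0.91, that of Hph 0.70 and that of tgo −0.19. These are descriptions over libraries that share a time order and a common late rise, and 826 of the 6933 expressed loci had a rho of at least 0.8 with Ldh. Among the loci with profiles most like that of Ldh were Glyp, the glycogen phosphorylase (0.99), Pfk, the phosphofructokinase of glycolysis (0.98), Glys, the glycogen synthase (0.98), and Pgi, the phosphoglucose isomerase (0.98). Their range was far narrower than that of Ldh. Glyp, the closest, went from 57.6 FPKM at CT24 to 207 at CT81, and Pfk from 15.9 to 114. The closest to sima were CG8765, the joint locus of CG11714 and Mob2, and CG12054 (0.98 each), and those to Vhl were CG5390 (0.98), CG30344 (0.97) and WDR79 (0.97). The closest to Hph were Dph1 (0.95), the joint locus of CG10600 and CG31752 (0.94) and Atg13 (0.93), and those to tgo were CG7546 (0.92), brun (0.88) and slmb (0.87).

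The partners of Vhl in the ubiquitin ligase are EloB, EloC, Cul2 and Roc1a, the elongins, cullin and RING subunit. By slope 0 of these 4 rose and 2 fell at 25°C, where 32.4% of all loci rose and 35.6% fell. From the third to the fourth block 1 of them rose, against 21.7% of all loci, and 1 fell. Roc1a, which serves other cullins too, fell from a block mean of 285 to 182 FPKM (slope −0.33 per 24 h, standard error 0.03, adjusted P = 1.37e-09), and EloC from 234 to 224 FPKM (−0.04, adjusted P = 0.0426). Of 8 other regulators of sima, 3 rose and 3 fell, against 32.4% and 35.6% of all loci. The largest slopes were those of Hsp83, the fly Hsp90 chaperone, which fell from 1107 to 655 FPKM (−0.39, adjusted P = 4.80e-08), Rheb, the activator of TOR, which rose from 83.3 to 101 FPKM (0.16, adjusted P = 6.34e-08), and the kinase Akt, which fell from 59.4 to 49.7 FPKM (−0.12, adjusted P = 0.000223). The smaller changes were rises of S6k (0.11) and sgg (0.08) and a fall of ago (−0.05).

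Other bHLH-PAS genes, relatives of sima and tgo, were measured at 9 loci, of which 4 reached a mean of 0.9 FPKM at 25°C and all 4 rose, against 32.4% of all loci. These were gce (slope 0.23, adjusted P = 6.81e-07) and Met (0.17, adjusted P = 5.71e-05), the receptors of juvenile hormone, the clock factor cyc (0.12, adjusted P = 1.29e-05) and the coactivator tai (0.08, adjusted P = 0.00216). The alternative partners of tgo in flies, sim, trh, ss and dysf, had means of 0.0047, 0.0417, 0.0284 and 0.0342 FPKM, and Clk had 0.0405.

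Of 10 genes known to be induced by hypoxia in flies, 8 were tested at 25°C, and 5 rose and 2 fell, against 32.4% and 35.6% of all loci. Thor, the fly 4E-BP that restrains translation, rose from a block mean of 727 FPKM over 1775 and 2760 to 3114 (slope 1.15, standard error 0.13, adjusted P = 1.06e-07). For scyl, a REDD1-like inhibitor of TOR, the block means were 24.8, 33.6, 55.6 and 76.4 FPKM (0.86, standard error 0.06, adjusted P = 1.85e-10). In both, every block mean was above the one before it, whereas for Ldh the mean of block 3 was below that of block 2. That difference of Ldh did not pass the limma test (−0.36, adjusted P = 0.630), and the contrast between genes was not tested. The FGF ligand bnl had block means of 5.08, 9.72, 6.64 and 21.0 FPKM (0.84, standard error 0.14, adjusted P = 1.87e-05), and here block 3 was below block 2, as for Ldh. BNIP3 (0.47) and the repressor hry (0.17) rose too. The receptor of bnl, btl (−0.23), and the pyruvate dehydrogenase kinase Pdk (−0.12) fell.

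Genes that handle pyruvate and lactate moved in both directions. Of 15 listed, 14 were matched, 13 were tested, and 4 rose and 8 fell, against 32.4% and 35.6% of all loci. Gpo1, the mitochondrial glycerol-3-phosphate dehydrogenase, rose from 60.9 to 136 FPKM between the first and last blocks (slope 0.67, standard error 0.05, adjusted P = 1.40e-09), whereas Gpdh1, its cytosolic counterpart in the glycerol-phosphate shuttle, fell from 84.2 to 47.7 FPKM (−0.41, standard error 0.03, adjusted P = 2.79e-11). The transporter-like gene out fell from 11.1 to 5.25 FPKM (−0.38, standard error 0.13, adjusted P = 0.0139). Of glycolysis, all 11 listed genes rose and 0 fell, against 32.4% and 35.6% of all loci, with a median slope of 0.41. The largest were those of Pfk (1.00, standard error 0.09, adjusted P = 7.50e-09), Pgi (0.78, adjusted P = 1.36e-08) and Tpi, the triosephosphate isomerase (0.61, adjusted P = 5.81e-07). The slope of Ldh was steeper than each of these 11. PyK is in both of these lists, and Pdk is in the hypoxia and the pyruvate list.

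At 28°C Ldh also ended higher than it began. The values (XLOC_008303, with the coordinates given above) were 63.02, 16.9, 68.4, 105 and 68.4 FPKM from CT24 to CT36 and 35.3, 28.0, 65.4, 83.2 and 204 from CT39 to CT51. They were 65.2, 147, 57.2, 244 and 143 FPKM from CT54 to CT66. The last block held 216, 255, 293, 228 and 254 FPKM. Its lowest value was exceeded by only 1 of the 15 earlier libraries, that of CT63. The block means were 64.4 ± 31.4, 83.2 ± 71.3, 131 ± 75.8 and 249 ± 29.5 FPKM (SD over 5 time points), so that the last was 3.87 times the first. By the estimate from low loci, these values stood for 5.55 reads at CT27 and up to 211 at CT75.

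The slope of Ldh at 28°C was 1.24 per 24 h on the log2 scale (standard error 0.24), where the median of all loci was 0.12. With limma over 7363 loci its adjusted P was 0.0719 (unadjusted 4.89e-05), and 4 loci passed (0.0543%), although 932 had an unadjusted P under 0.05. Kendall's tau with time was 0.58, with an adjusted P of 0.0192, and 1.45% of loci passed that test. Limma over the 2035 loci that reached 0.9 FPKM in all 20 libraries gave an adjusted P of 0.00288 (5.8% of these rose), and over all detected loci 0.025. Without the library of CT60, one of the shallowest, the adjusted P was 0.0385 in the test over 7363 loci, and without all 4 shallowest libraries the slope was 1.21 with an adjusted P of 0.0764. The slope itself stayed between 1.09 and 1.35 when any 1 library was left out.

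**Figure D3:**
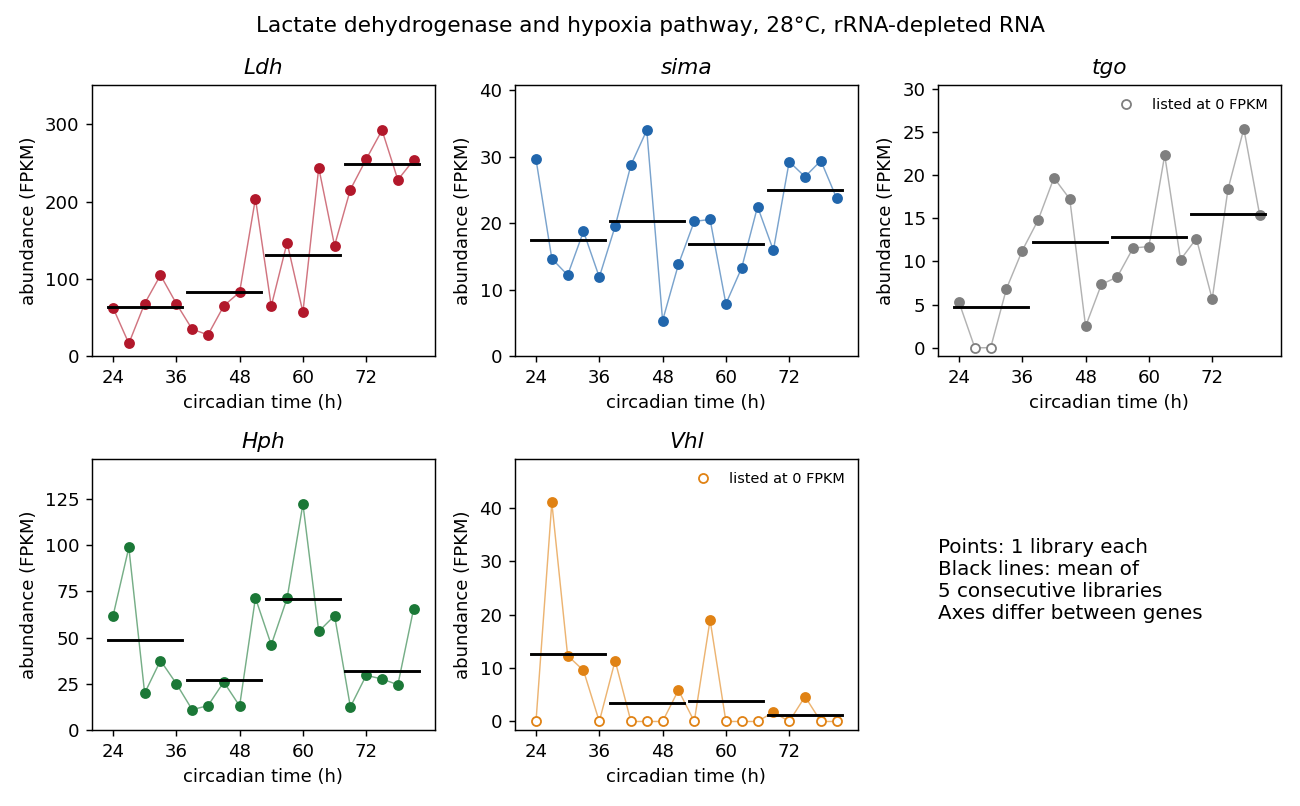
FPKM of the 5 genes at 28°C against circadian time (h), with 1 point per library, open points for values listed at 0 and black lines for the mean of 5 consecutive libraries. The last 5 values of Ldh lie between 216 and 293 FPKM, Hph is highest at CT27 and CT60, and Vhl is listed at 0 in 12 libraries.

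The upstream genes passed no trend test at 28°C. For sima the values ran from 5.40 FPKM at CT48 over a median of 19.9 to 34.0 FPKM at CT45, and the blocks overlapped (slope 0.18, standard error 0.22, adjusted P = 0.793). Hph ran from 11.1 FPKM at CT39 over a median of 33.6 to 122 FPKM at CT60 (slope 0.08, standard error 0.32, adjusted P = 0.948, and between −0.03 and 0.26 with 1 library left out). Its highest values were those of CT60 and CT27 (98.7 FPKM), the libraries with relative depths of 0.538 and 0.520, and without the 4 shallowest libraries its slope was 0.37 (adjusted P = 0.658). The part of depth in these values was not tested. tgo was listed at 0 at CT27 and CT30 and reached 25.4 FPKM at CT78, with block means of 4.68, 12.3, 12.8 and 15.5 FPKM. Its slope was 1.02 (standard error 0.34, adjusted P = 0.217). Vhl was listed at 0 in 12 of the 20 libraries, and its highest value, 41.0 FPKM at CT27, stood for about 11.1 reads. A course of Vhl could not be read at this depth.

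From the first to the last block Ldh differed by 2.13 at 28°C (standard error 0.55, adjusted P = 0.0853), tgo by 2.06 (0.69, 0.171), sima by 0.55 (0.44, 0.630), Hph by −0.54 (0.55, 0.706) and Vhl by −1.71 (1.12, 0.538). The median of all loci was 0.25, and 0.19% of them passed. In the 3 comparisons of neighbouring blocks 0 members and 0 of 7363 loci passed, while 715, 408 and 505 loci had an unadjusted P under 0.05. Of the other lists 0 genes passed the trend test at 28°C. The 11 glycolytic genes had a median slope of 0.60, and the 8 tested genes of the hypoxia list one of 0.17.

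**Figure D4:**
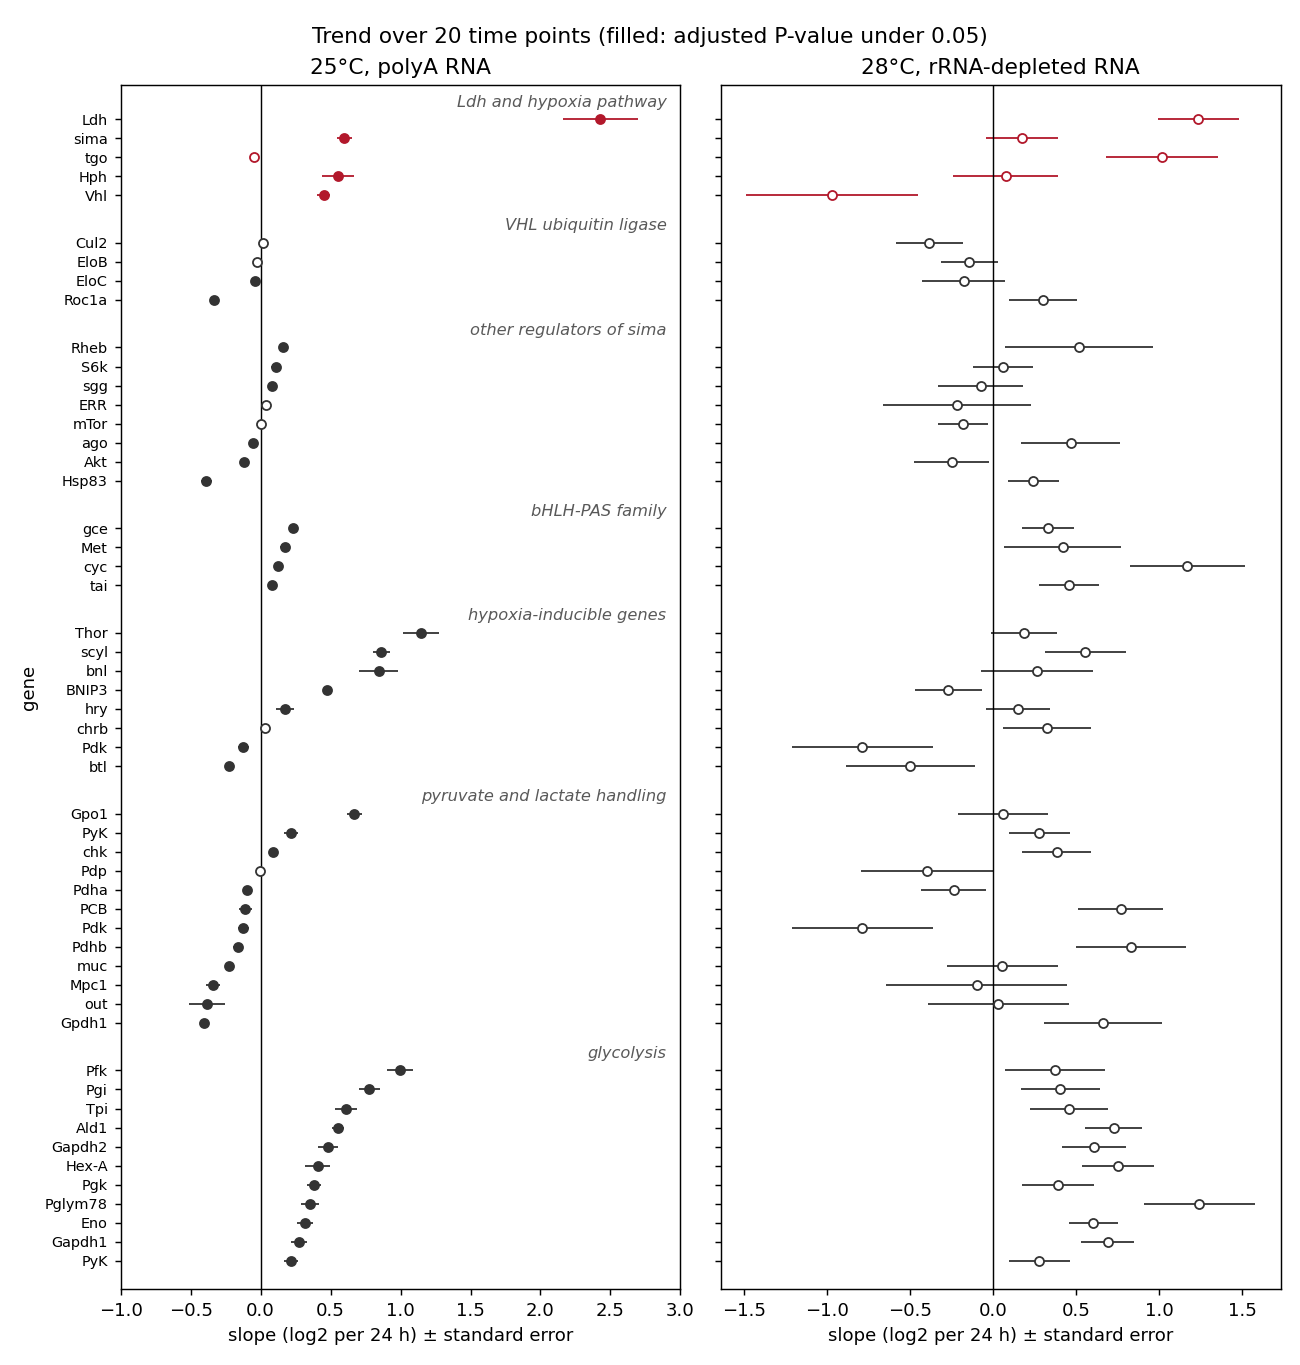
Slope of log2(FPKM + 1) per 24 h with its standard error for the 5 genes and the reported pathway genes with a mean of at least 0.9 FPKM at 25°C, with filled points for an adjusted P under 0.05; the left panel is 25°C and the right panel 28°C, on different scales. At 25°C Ldh (2.43) lies apart from all others and all 11 glycolytic genes are above 0, and at 28°C every point is open, and the error bars are wider for 50 of 51 genes but not for Ldh (0.24 against 0.27).

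Daily rhythm was tested with JTK-Cycle, a rank test of the linearly detrended profile against cosines of 21, 24 and 27 h. The test was re-implemented with the periods and threshold of the study's methods, and its calls can differ from those of the original program. The study itself treated Ldh, as ImpL3, among its rhythmic metabolic transcripts and reported similar profiles by quantitative PCR. For the protein it reported nearly the same profile with either labelling and a strong correlation with NAD. It also cited work that found a circadian pattern of ImpL3 expression in fly heads. Protein and whole flies were not examined here. At 25°C 0 of the 5 members passed at an adjusted P of 0.05, where 4.89% of 6933 transcripts did. Ldh came closest, with an adjusted P of 0.0813 for a period of 27 h, and sima and Vhl had 0.522 each and tgo and Hph 1. Leaving out the library of CT33 or CT54 gave Ldh 0.0447 and 0.0223, over a range of 0.0223 to 0.158 for all single omissions. A cosinor regression with a period of 24 h in place of JTK-Cycle gave P = 0.0497 for Ldh, 0.0345 for sima and 0.0360 for tgo. These P-values are adjusted at most for the cosines tried. After Benjamini-Hochberg adjustment over transcripts the smallest P of any transcript by JTK-Cycle was 0.552 at 25°C and 0.715 at 28°C.

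At 28°C 0 members passed either, against 3.73% of 2035 transcripts. tgo had an adjusted P of 0.0503 for 21 h, Hph 0.359, sima 0.625, and Ldh and Vhl 1. The value of tgo, which was at 0 in 2 libraries and so was not among the 2035, was 0.0442 with ties of the cosines broken by time order. It was between 0.0141 and 0.0447 when the library of CT33, CT57, CT60, CT66, CT75, CT78 or CT81 was left out and reached 0.223 with another.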

How the data were processed

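Reads were mapped by the authors with TopHat against dm3. From RefSeq gene models they derived FPKM per locus with the Cufflinks tools, deposited as a separate table for each course, and the 28°C alignments had been subsampled beforehand. Replicate libraries are not separate in these tables, and whether counting used strand is not given in the sources used here. CG11986, Tim17a2 and CG9062, which overlap tgo, Hph and Vhl on the opposite strand, may have added reads to them, as may lncRNA:CR45793 to Hph. On the same strand lncRNA:CR46112 overlaps the span of sima by 536 bases and CR45033 that of Hph by 427 bases. These may have added reads whether or not strand was used. FPKM values carry length and library scaling, so that no counting error could be computed; the value of 1 read, and from it depth, was estimated from low loci of known transcript length.

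RefSeq accessions were matched to symbols for 98.19% of loci. Values were tested as log2(FPKM + 1) with limma 3.58.1 in R 4.3.3, as a slope per 24 h and as means of 4 blocks of 5 libraries, over loci with a mean of at least 0.9 FPKM. P-values were two-sided with Benjamini-Hochberg adjustment over all tested loci, and an adjusted P under 0.05 was called. They treat libraries as independent around the line or block mean, and the spread within a block also holds the trend inside it. JTK-Cycle was written anew in Python 3.11.15, with linear detrending and Bonferroni adjustment over the cosines, and calls were counted over loci that reached 0.9 FPKM in all 20 libraries. The limma, JTK-Cycle and Kendall tests were checked on simulated data with independent noise in each library. The cosinor regression was not. The members and gene lists were chosen with earlier results of these data known. Named were the 5 members, the 3 called genes with the largest slopes of each list at 25°C, the loci nearest to each member by Spearman's rho, and, chosen after their values were seen, the genes behind counts of 5 or fewer and the undetected partners of tgo. A gene of the pyruvate and lactate list is counted but not reported here. Alternatives covered the pseudocount, the filter, rescaling by median of ratios, detrending, rank tests, cosinor regression and leaving out each library. Those without the 4 shallowest libraries at 28°C, with ties broken by time order, and of the range of Ldh without CT24, were chosen after seeing the data.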

Additional observations from a re-analysis of the deposited data

How the results depend on the processing

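Of 1468 results for the 5 members under an alternative, 1421 kept their direction and their side of the threshold, 21 changed side and 26 changed sign, 23 of these at 28°C. Of the 26, 0 passed the test with either sign. The 125 member trends at 25°C under alternatives all kept their call. On the log2 scale, sign changes without the 4 shallowest libraries at 28°C were those of Ldh between the 5-library blocks 1 and 2 (later minus earlier, −0.38), tgo between blocks 2 and 3 (−0.18) and Hph between blocks 1 and 4 (0.064), and with a pseudocount of 0.1 that of Vhl between blocks 3 and 4 (0.44). With 1 library left out, the 28°C slope of Hph ran from −0.033 to 0.26. The 28°C difference between blocks 1 and 2 ran from −0.21 to 0.50 for Ldh and from −0.17 to 0.44 for sima, that between blocks 2 and 3 from −0.49 to 0.12 for sima, from −0.19 to 0.45 for tgo and from −1.28 to 0.17 for Vhl, and that between blocks 3 and 4 from −0.0063 to 0.49 for tgo and from −0.50 to 0.79 for Vhl. At 25°C the difference of Vhl between blocks 2 and 3 ran from −0.071 to 0.061. Counts of called loci moved more. At 25°C the 339 transcripts called by JTK-Cycle became 114 without detrending, 550 with ties broken by time order and 737 by cosinor regression, and 207 to 579 with 1 library left out (lowest without CT63, highest without CT33). At 28°C the 4 loci called for a trend became 1 with a pseudocount of 0.1, 42 with no filter, 107 by Kendall's tau, 167 among loci with 0.9 FPKM in every library and 150 when the 4 shallowest libraries were also dropped, and 0 to 6 with 1 library left out. The 14 loci called between the first and last blocks became 236 with 0.9 FPKM in every library, 23 without the 4 shallowest libraries and 7 to 75 with 1 left out. The 76 transcripts called by JTK-Cycle became 137 with a mean of at least 0.9 FPKM, 145 with ties broken and 183 by cosinor. The cause of these shifts was not tested. At 28°C the stricter filter also left 2035 loci to test in place of 7363, and the part of this number was not tested either. Depth limits what can be said of Vhl and tgo at 28°C. No paired analysis was possible because each time point has 1 library and the courses were not compared with each other.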

Other observations

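Among the listed genes other than the members, several passed JTK-Cycle at 25°C, and they were picked out after their values were seen. Of the hypoxia list these were hry (adjusted P = 0.00750) and bnl (0.0303), of the pyruvate and lactate list Mpc1, a subunit of the mitochondrial pyruvate carrier (0.0101), and of the regulators of sima Rheb (0.00554). Of the 11 glycolytic genes 6 passed, against 4.89% of all expressed transcripts. At 28°C Gpo1 (0.0392) of the pyruvate list and Pgk (0.00150) of glycolysis passed, against 3.73%. At 28°C the Spearman's rho of Ldh was 0.16 with sima, 0.29 with tgo, 0.02 with Hph and −0.12 with Vhl over 20 libraries, values given only as a description at this depth.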
